A study of Mus musculus with 8 samples.

Results

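Macrophages are a known source of growth factors, and 10 such genes were followed here: Pdgfa, Pdgfb, Pdgfc, Vegfa, Vegfb, Igf1, Hbegf, Tgfb1, Hgf and Areg. They were chosen from the PDGF, VEGF, IGF, EGF-like, TGF and HGF families by name, with results of the So(d18:1) and control comparison of these same libraries already known, so that their values in it are given as a description. The table lists 55357 genes, and all 10 were found in it by symbol. Of the 10, 8 had enough counts to be among the 14514 genes tested, and Hbegf and Areg did not.

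The cells were bone marrow-derived macrophages (BMDM), grown from the femur and tibia marrow of wild-type C57BL/6J mice for 5 to 6 days in medium with serum and 10 ng/ml M-CSF, the growth factor that drives this lineage. In the So(d18:1) group, 4 cultures received 2 μM So(d18:1), the sphingoid base sphingosine, in methanol for 6 h. In the control group, 4 cultures received methanol alone for the same time. The labels name no inflammatory stimulus, whereas the text of the study places these cells under one. The labels do not tie libraries to animals, so p-values measure the spread between these libraries.

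Growth factors of these families are secreted proteins that act through receptors on neighbouring cells. PDGFs act on fibroblasts, stellate cells and other mesenchymal cells, VEGFs on vascular endothelium, IGF-1 on most tissues, HB-EGF and amphiregulin on epithelium through the EGF receptor, and HGF on epithelial cells and hepatocytes through MET. Several are made as inactive forms: PDGF-C and HGF are cut by serine proteases, the EGF-like factors are shed from the membrane by ADAM17, and TGF-β1 is held in a latent complex. In liver and in healing wounds, macrophages are regarded as an important source of several of these factors.

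Poly(A) RNA was sequenced, and total counts lay between 17748397 and 26088609 per library. Levels are given as CPM, the counts of a gene per 1e6 counts of the library after TMM scaling. Macrophage markers were high in all libraries, with the 8 listed genes summing to 30680 to 32910 CPM with methanol and 26540 to 31350 CPM with So(d18:1). Of these 8 genes, 7 had a negative log2 fold change, with a median of -0.14 over the list. At an adjusted p under 0.05, Cd68 and Mertk fell and Itgam rose with So(d18:1). The 7 neutrophil markers summed to 1093 to 1499 CPM with methanol and 849 to 957 CPM with So(d18:1), so that these groups did not overlap. Of the 7, 4 had an adjusted p under 0.05, all lower, where 5.07% of all tested genes were called lower. The 6 lymphocyte markers, mostly Cd4, summed to 23.4 to 31.3 CPM with methanol and 15.9 to 21.4 CPM with So(d18:1), again without overlap. All 4 of them that were tested had a negative log2 fold change, and 2 passed an adjusted p of 0.05. The 6 megakaryocyte and platelet markers, a lineage known to release PDGF, summed to 26.7 to 41.5 CPM with methanol and 23.9 to 26.8 CPM with So(d18:1). All 5 of them that were tested had a negative log2 fold change, with a median of -0.61, and none had an adjusted p under 0.05. The 8 fibroblast markers, 6 of them tested, summed to 7.21 to 10.8 CPM with methanol and 6.44 to 9.18 CPM with So(d18:1). Endothelial markers summed to 36.7 to 46.6 and 32.0 to 39.8 CPM, mast cell and basophil markers to 4.52 to 6.70 and 3.57 to 6.09 CPM, and dendritic cell markers to 5.4 to 7.32 and 6.25 to 7.68 CPM. Of the 6 markers in each of these lists, 4 endothelial, 1 mast cell and basophil and 4 dendritic cell markers were tested, and none passed. The part of other cells in the growth factor values was not tested. In bulk RNA of this kind, fewer cells of a type and less RNA per cell cannot be told apart.

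Of the 8 growth factors tested, Pdgfc, Igf1 and Hgf fell with So(d18:1) and none rose at an adjusted p under 0.05 (edgeR's quasi-likelihood test, Benjamini-Hochberg adjustment over all 14514 genes). Pdgfc fell to 0.446 of control, Igf1 to 0.703 and Hgf to 0.892, where the call of Hgf was lost when most single libraries were left out. In these 3 genes each So(d18:1) library lay below each control library. Among all tested genes 8.94% were called in either direction, 5.07% lower and 3.87% higher, and in 15.0% the groups did not overlap in CPM. Without So(d18:1) replicate 2 the number of genes called over the table fell from 1298 to 815, with Pdgfc and Igf1 still among them. Pdgfc was also the single growth factor past the threshold of the study's methods, an unadjusted p under 0.05 with a change of at least 1.5-fold, which 3.89% of tested genes passed. Since the genes were chosen with this comparison in view, nothing is read from these counts against those shares.

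To compare levels between genes, CPM were divided by the gene length that the deposited table gives, in kb. The length of the transcripts made in these cells was not examined and may differ from it. The order of genes and the family shares hold on this scale only. On this scale Vegfa was highest in control, at 104 ± 14.2 CPM per kb (SD, n = 4), followed by Tgfb1 at 54.3 ± 3.77 and Igf1 at 51.2 ± 2.35, whose ranges overlapped. Hgf at 10.1 ± 0.624 and Vegfb at 8.36 ± 1.49 CPM per kb also overlapped, as did Pdgfa at 2.93 ± 0.664 and Pdgfb at 2.84 ± 0.715. Pdgfc was the lowest of the tested genes at 1.15 ± 0.148 CPM per kb. In So(d18:1) libraries Tgfb1 at 60.3 ± 1.93 and Igf1 at 36.0 CPM per kb no longer overlapped, Pdgfb at 3.24 ± 0.335 lay above Pdgfa at 2.50 ± 0.173, and Pdgfc stood at 0.512 ± 0.0491.

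**Figure D1:**
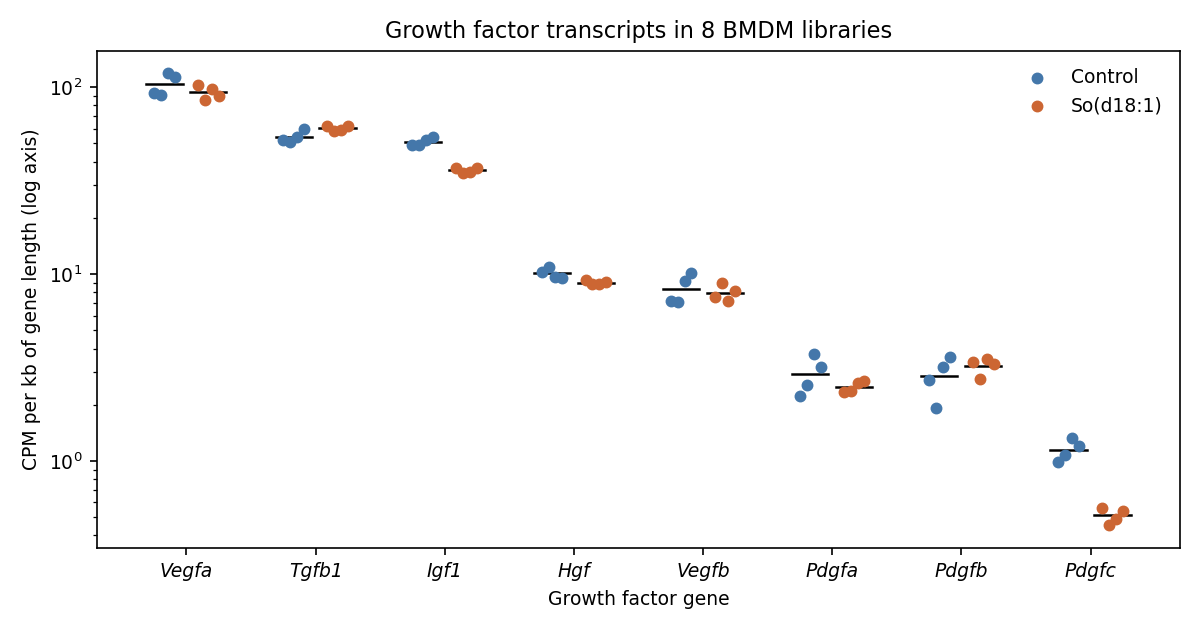
Level of the 8 tested growth factors in CPM per kb of gene length (log axis) in each control and So(d18:1) library, with points in replicate order from left to right and a line at the mean of 4. The groups are apart for Igf1, Hgf and Pdgfc, where every So(d18:1) point is below every control point, and overlap for the other 5.

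From the RefSeq table of sequences (build GRCm38.p6, the assembly called mm10), 11 promoters of 8 of the 10 genes were searched. Pdgfb had no entry there, and Hbegf was left out of this search. The bases before the start site are shown for Pdgfc and Hgf, which fell, and for Vegfa and Tgfb1, which were highest per length and not called. Capitals mark ACGTG or GCGTG on either strand, the core to which HIF factors bind, and TGANTCA, the AP-1 site, where CACGC is GCGTG read on the other strand. A CACGTG would count on both strands, and none was present.

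Pdgfc (chr3:81036166-81036415, plus strand): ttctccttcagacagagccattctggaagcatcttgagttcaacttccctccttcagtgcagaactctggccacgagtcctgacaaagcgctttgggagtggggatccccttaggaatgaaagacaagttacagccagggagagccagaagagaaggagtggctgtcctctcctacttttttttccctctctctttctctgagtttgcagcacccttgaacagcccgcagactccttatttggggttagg

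Hgf (chr5:16553245-16553494, plus strand): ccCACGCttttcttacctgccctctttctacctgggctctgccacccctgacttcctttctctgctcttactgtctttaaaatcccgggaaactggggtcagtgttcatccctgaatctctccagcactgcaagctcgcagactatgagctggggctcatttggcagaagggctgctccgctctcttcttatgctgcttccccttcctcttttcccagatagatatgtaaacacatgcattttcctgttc

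Vegfa (chr17:46032378-46032627, minus strand): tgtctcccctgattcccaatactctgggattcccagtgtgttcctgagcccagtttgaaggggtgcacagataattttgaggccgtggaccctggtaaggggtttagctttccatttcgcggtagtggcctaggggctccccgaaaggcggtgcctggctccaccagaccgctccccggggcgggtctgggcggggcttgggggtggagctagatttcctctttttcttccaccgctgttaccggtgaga

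Tgfb1 (chr7:25686752-25687001, plus strand): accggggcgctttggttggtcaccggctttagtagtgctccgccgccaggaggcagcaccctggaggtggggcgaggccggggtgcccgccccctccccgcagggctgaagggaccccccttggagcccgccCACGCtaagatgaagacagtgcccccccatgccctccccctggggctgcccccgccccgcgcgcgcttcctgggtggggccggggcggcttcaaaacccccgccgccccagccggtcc

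The window of Igf1 holds annotated exon bases, so only the stretches around its matches are shown.

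Igf1 around GCGTG (chr10:87860904-87860930, plus strand): agctactgcatGCGTGgtggtctttga

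Igf1 around TGANTCA (chr10:87861063-87861091, plus strand): gagctggaactTGAATCActattctggat

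A HIF core was present in 6 of the 11 promoters (54.5%), each from 250 bases before to 50 after the start, and in 43.8% of all 32851 promoters in the table. Neither Pdgfc nor the Vegfa promoter shown held one, whereas the window of a second listed Vegfa start held GCGTG 218 and ACGTG 211 bases before it. The Hgf promoter shown held GCGTG 248 bases before its start, and the window of a second listed Hgf start held none. Tgfb1 held GCGTG 118 and Igf1 196 bases before the start. TGANTCA was found in 1 member promoter, that of Igf1, 37 bases before the start, and in 7.81% of all promoters. These are matches of letters and carry no information on binding.

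The PDGF genes encode the chains of platelet-derived growth factor. Pdgfc (ENSMUSG00000028019, chromosome 3 from 81036416 to 81214040 in GRCm38), whose protein needs proteolytic removal of a CUB domain to become active, was at 5.00, 5.49, 6.75 and 6.11 CPM in control replicates 1 to 4 and at 2.86, 2.31, 2.50 and 2.76 CPM in So(d18:1) replicates 1 to 4. All So(d18:1) libraries were low and the groups were well apart, on 104 to 160 counts in each control and 48 to 71 in each So(d18:1) library. The difference was -1.17 on the log2 scale (SE 0.147, adjusted p = 1.85e-05, edgeR). Over the 8 fits that each omit 1 library it lay between -1.23 and -1.09. An exon of Pdgfc overlaps Gm16000 on the other strand, which had 0 counts in all 8 libraries.

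Pdgfa (ENSMUSG00000025856, chromosome 5 from 138976014 to 138997370), the A chain, was at 6.98, 8.0, 11.6 and 9.95 CPM with methanol and at 7.29, 7.37, 8.18 and 8.34 CPM with So(d18:1). Control replicates 3 and 4 were high, and the So(d18:1) libraries lay within the control range. Its log2 fold change was -0.23, with a 95% interval from -0.51 to 0.05 (adjusted p = 0.325, edgeR). This count is uncertain, since 21.3% of the 50-base words of its transcripts are shared with 6330403L08Rik on the other strand, itself at 7.45 CPM with methanol and 5.22 CPM with So(d18:1), and no strand setting of the counting is stated.

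Pdgfb (ENSMUSG00000000489, chromosome 15 from 79995874 to 80014977), the B chain, was at 11.3, 7.96, 13.2 and 14.9 CPM with methanol and at 14.1, 11.4, 14.6 and 13.7 CPM with So(d18:1), again inside the control range. Its log2 fold change was 0.19, with an interval from -0.17 to 0.54 (adjusted p = 0.545, edgeR). Within the summed level of the 3 genes per kb, Pdgfc made up 15.1% to 19.4% with methanol and 7.42% to 8.93% with So(d18:1). The mean share of Pdgfb was 40.9% ± 5.37 in control and 51.7% ± 2.08 in So(d18:1) libraries (SD, n = 4 each), and that of Pdgfa was 42.3% ± 4.09 and 40.1% ± 2.27.

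**Figure D2:**
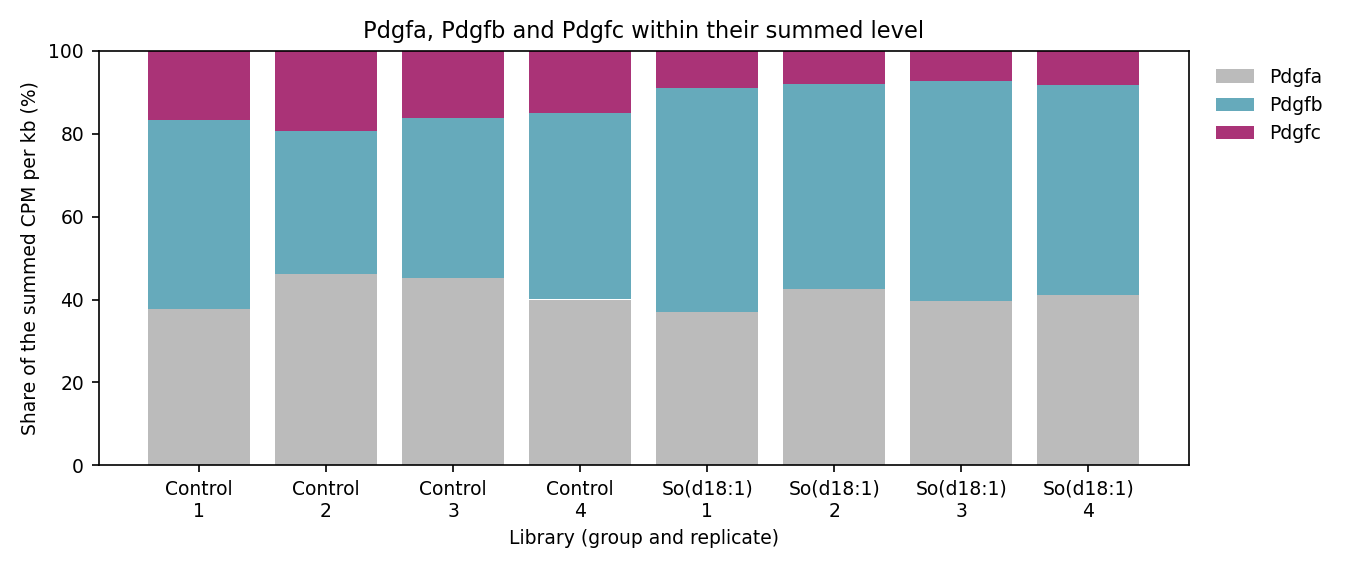
Share of Pdgfa, Pdgfb and Pdgfc in their summed CPM per kb, in percent, for each of the 8 libraries. The Pdgfc segment is 15.1% to 19.4% with methanol and 7.42% to 8.93% with So(d18:1).

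Vegfa (ENSMUSG00000023951, chromosome 17 from 46016993 to 46032369) encodes the main vascular growth factor, known to be induced in hypoxia. In the study it serves as a gene downstream of HIF-2α, and a separate qPCR assay of BMDM there reports lower Vegf after So(d18:1). Whether that result and the values below differ was not tested, and the conditions of that assay were not compared with those here. In these libraries the Vegfa transcript was at 399.6, 387, 508 and 486 CPM with methanol and at 440.3, 364, 419 and 386 CPM with So(d18:1). Control replicates 3 and 4 were above all other libraries, while control replicates 1 and 2 lay within the So(d18:1) range. Its log2 fold change was -0.15, with a 95% interval from -0.38 to 0.09 (adjusted p = 0.451, edgeR), and it remained negative whichever library was omitted. Vegfb (ENSMUSG00000024962, chromosome 19 from 6982473 to 6987651), whose protein binds FLT1, was at 11.5, 11.3, 14.7 and 16.2 CPM with methanol and at 12.1, 14.4, 11.5 and 13.0 CPM with So(d18:1). Its log2 fold change was -0.07, with an interval from -0.31 to 0.17 (adjusted p = 0.755, edgeR), and its sign turned without control replicate 4 (0.030). Of the summed Vegfa and Vegfb level per kb, Vegfa made up 92.6% ± 0.492 with methanol and 92.1% ± 1.32 with So(d18:1) (SD, n = 4 each). 

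Igf1 (ENSMUSG00000020053, chromosome 10 from 87858265 to 87937042) encodes insulin-like growth factor 1, which macrophages release in tissue repair. It was at 488, 488, 519 and 534 CPM with methanol and at 368, 344, 349 and 366 CPM with So(d18:1). All So(d18:1) libraries were low and close to each other, on 6557 to 9438 counts against 10134 to 12946 in control. The difference was -0.51 on the log2 scale (SE 0.0442, adjusted p = 1.5e-07, edgeR). It stayed between -0.53 and -0.48 whichever library was omitted. It ranked 22 by p among the tested genes, and no other annotated gene shares an exon or a 50-base word with it.

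The EGF-like factors were barely expressed. Hbegf, made as a membrane-bound precursor, had 4, 5, 7 and 5 counts in control and 0, 1, 0 and 8 in So(d18:1) libraries. The So(d18:1) libraries thus spread from none to above every control library, and 8 of their 9 counts came from replicate 4. Areg, amphiregulin, had 1 count in control replicate 3 and 0 in the other 7 libraries. Over the 4 So(d18:1) libraries, 0 counts allow up to 3 in 84877455 counts, or 0.0353 CPM, where this covers counting error only.

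Tgfb1 (ENSMUSG00000002603, chromosome 7 from 25687002 to 25705077) encodes the profibrotic and immunosuppressive TGF-β1. It was at 263, 258, 274 and 300.4 CPM with methanol and at 312, 293, 298 and 313 CPM with So(d18:1). Of the So(d18:1) libraries, 2 lay above all controls, and control replicate 4 lay above the other 2. The log2 fold change was 0.15 (standard error 0.0483), with an adjusted p of 0.0558 (edgeR) that misses the threshold. Without control replicate 4 the value was 0.20 and passed (adjusted p = 0.0142, edgeR).

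Hgf (ENSMUSG00000028864, chromosome 5 from 16553495 to 16620152) encodes hepatocyte growth factor. It was at 73.3, 78.6, 69.6 and 68.7 CPM with methanol and at 66.7, 63.6, 63.7 and 64.8 CPM with So(d18:1). The groups did not overlap, but control replicate 4 and So(d18:1) replicate 1 lay close together. The difference was -0.17 on the log2 scale (SE 0.0508, adjusted p = 0.0453, edgeR). This call was lost without control replicate 1 (adjusted p = 0.107), control replicate 2 (-0.12, adjusted p = 0.139) and each So(d18:1) replicate from 1 to 4 (adjusted p = 0.0619, 0.126, 0.103 and 0.0863, edgeR). An exon overlaps Gm43489 on the same strand, which had 34 counts with methanol and 33 with So(d18:1).

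Of the 8 tested growth factors, 7 were higher in control replicates 3 and 4 than in control replicates 1 and 2, Pdgfc and Igf1 included, and Hgf was lower there. These libraries also differed beyond the growth factors. The chi-square per gene was 2.75 between control replicates 1 and 2 and 3.76 between 3 and 4, but 5.68 to 12.1 across these pairs. How many of all tested genes were split in this way was not counted, so nothing is read from the 7 of 8. The neutrophil marker sum was also higher in control replicates 3 and 4, at 1499 and 1311 against 1112 and 1093 CPM. So was the megakaryocyte and platelet sum, at 41.5 and 34.1 against 26.9 and 26.7 CPM. The macrophage, fibroblast, endothelial, mast cell and basophil, and lymphocyte sums were higher there too, whereas the dendritic cell sum was lower. Control replicates 1 and 2 lay above each So(d18:1) library for Pdgfc, at 5.00 and 5.49 CPM against at most 2.86, and for Igf1, at 488 and 488 CPM against at most 368. Their neutrophil marker sums, at 1112 and 1093 CPM, also lay above each So(d18:1) library, at most 957 CPM. Their lymphocyte marker sums did so as well, at 25.8 and 23.4 CPM against at most 21.4 CPM. Their megakaryocyte and platelet sums, at 26.9 and 26.7 CPM, lay around the highest of So(d18:1), 26.8 CPM. The part of these markers in the growth factor values was not tested.

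**Figure D3:**
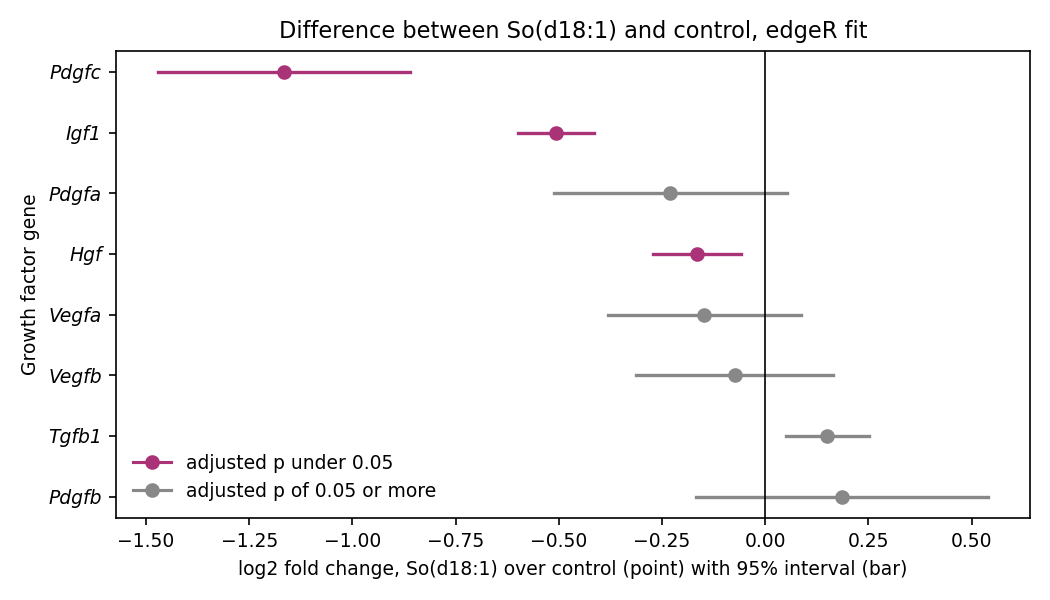
The log2 fold change of So(d18:1) over control for the 8 tested growth factors, with the 95% interval of the edgeR fit as a bar. Pdgfc (-1.17), Igf1 (-0.51) and Hgf (-0.17) passed the adjusted threshold, and the intervals of Pdgfa, Pdgfb, Vegfa and Vegfb cross 0.

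The genes whose pattern over the 8 libraries was most like that of a called growth factor were looked up among 11557 tested genes with a mean log2 CPM of at least 1, by the root mean square difference of log2 CPM after centring each gene on its mean. For Pdgfc these were Clec10a (0.105), Gm15568 (0.164) and Pparg (0.164). For Igf1 they were Pdxk (0.0339), Rab3il1 (0.0518) and Nrp1 (0.0541). For Hgf they were Arhgap18 (0.0274), Rb1 (0.0308) and Pign (0.0329), of which Rb1 and Pign were not called. This likeness is a description.

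The genes around these factors were then taken from 6 lists of 115 ligands, receptors, proteases, binding proteins and inhibitors, listed by role. Of these, 72 were tested, 5 rose and 13 fell at an adjusted p under 0.05, and 54 did not pass. This is 25.0% of those tested, where all tested genes gave 8.94%, and the median log2 fold change was -0.09 against 0.0036 over all tested genes. The threshold of the study's methods was passed by 8 of the 72, and by 3.89% of all tested genes. The lists, too, were chosen with earlier results of these data known, so nothing is read from these counts against those shares.

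Among other PDGF and VEGF ligands and receptors, 2 of the 5 tested genes fell and none rose, with a median log2 fold change of 0.01. Both were neuropilins, co-receptors that bind VEGF-A and semaphorins. Nrp1 fell from 187 ± 5.17 to 128 ± 4.69 CPM (mean and SD over 4 libraries a group), a difference of -0.55 on the log2 scale (SE 0.043, adjusted p = 3.15e-08, edgeR). Nrp2 fell from 250 ± 6.46 to 219 ± 2.53 CPM, with a difference of -0.19 in log2 units (adjusted p = 0.00464 by edgeR). Flt1, Kdr and Pdgfrb, the signalling receptors that were tested, were at 2.95, 2.17 and 2.12 CPM with methanol and did not pass, and Pdgfd, Pgf, Vegfc and Vegfd were too low to test.

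Of the proteases and inhibitors that act on PDGF-C and HGF, 2 of 9 tested genes rose and 2 fell, with a median of -0.19. Plat, tissue plasminogen activator, an activator of PDGF-C, was at 0.0209 CPM in control and too low to test. Plau, the urokinase that activates plasminogen and can cleave PDGF-family factors and HGF, fell from 32.7 ± 6.43 to 20.3 ± 1.72 CPM, a difference of -0.69 in log2 units (adjusted p = 0.0108 by edgeR), a call lost without So(d18:1) replicate 4 (adjusted p = 0.0554). Hpn, encoding hepsin, a protease that cleaves pro-HGF, fell with a difference of -0.48 in log2 units (adjusted p = 0.00151 by edgeR). St14, encoding matriptase of the same activity, rose from 1.35 ± 0.347 to 2.42 ± 0.395 CPM on 22 to 46 and 40 to 66 counts (log2 fold change 0.84, adjusted p = 0.0188, edgeR). The call of St14 was lost without control replicate 1 (adjusted p = 0.0561), control replicate 3 (0.0530) or So(d18:1) replicate 2 (0.0835). Spint1, which encodes the HGF activator inhibitor that blocks matriptase and hepsin, rose from 0.613 ± 0.194 to 4.71 ± 0.972 CPM. Its counts were low, at 9 to 21 in each control and 68 to 117 in each So(d18:1) library. The Spint1 difference was 2.92 in log2 units (adjusted p = 3.15e-08 by edgeR). Met, the HGF receptor, was at 2.03 CPM with methanol and 1.82 CPM with So(d18:1) and did not pass.

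In the IGF system 1 of the 7 tested genes fell and none rose, with a median log2 fold change of -0.11. The gene was Irs2, an adaptor of the insulin and IGF-1 receptors, which went from 38.7 ± 3.10 to 30.2 ± 2.38 CPM (SD, n = 4 each), or -0.36 on the log2 scale (adjusted p = 0.00194, edgeR). An exon of it overlaps 9530052E02Rik on the other strand. The receptors Igf1r at 65.2 and 62.5 CPM and Insr at 142 and 140.3 CPM did not pass. Igfbp4, which binds IGF-1 and was the most abundant gene of this list in CPM, was at 666 ± 18.0 CPM with methanol and 615 ± 25.7 with So(d18:1) (log2 fold change -0.11, adjusted p = 0.102, edgeR).

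In the EGF family, 1 of 12 tested genes rose and 1 fell, with a median of -0.08. Nrg1, neuregulin 1, a ligand of ERBB3 and ERBB4, rose from 0.834 ± 0.209 to 3.07 ± 0.532 CPM (SD, n = 4 each), on 14 to 25 counts in each control and 47 to 84 in each So(d18:1) library. Its difference was 1.88 on the log2 scale (SE 0.228, adjusted p = 1.2e-05, edgeR). Adam17, the sheddase of HB-EGF and amphiregulin, fell from 513 ± 8.40 to 467 ± 8.12 CPM, a difference of -0.14 in log2 units (adjusted p = 0.0343 by edgeR), a call lost whichever of the 8 libraries was omitted (adjusted p = 0.0523 to 0.108). Exons of Nrg1 and Adam17 overlap genes on the other strand. Erbb3 was at 9.12 and 9.67 CPM and did not pass, and Egfr was under 1 CPM.

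In the TGF-β system, 2 of 23 tested genes rose and 2 fell, with a median log2 fold change of -0.01. Thbs1, encoding thrombospondin 1, which can release active TGF-β from its latent complex, rose from 4188 ± 59.8 to 5806 ± 277 CPM (mean and SD over 4 libraries a group), a difference of 0.47 on the log2 scale (SE 0.0437, adjusted p = 3.69e-07, edgeR). Gm29233 overlaps it on the other strand. Tgfbi, a matrix protein named for its induction by TGF-β, rose from 527 ± 50.8 to 696 ± 43.9 CPM (log2 fold change 0.40, adjusted p = 0.000705, edgeR). Nrros, which tethers latent TGF-β1 to the surface of myeloid cells, fell with a difference of -0.13 in log2 units (adjusted p = 0.0496 by edgeR), and Smad3, a signal transducer of the receptors, fell with -0.23 (adjusted p = 0.0479, edgeR). When libraries were omitted in turn, the call of Nrros was kept only without So(d18:1) replicate 1 and reached an adjusted p of 0.149 without control replicate 3. That of Smad3 was kept only without control replicate 1 or So(d18:1) replicate 3 and reached 0.190 without So(d18:1) replicate 2. The receptors Tgfbr1 and Tgfbr2 did not pass, with log2 fold changes of -0.09 and -0.12, and neither did Smad7 and Skil, which TGF-β is known to induce, at 0.02 and 0.0015.

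Of the other growth factors that macrophages can make, 5 of 16 tested genes fell and none rose, with a median of -0.16. Fgf1, an acidic fibroblast growth factor, fell from 3.48 ± 0.199 to 1.76 ± 0.417 CPM (mean and SD over 4 libraries a group), a difference of -1.0 in log2 units (adjusted p = 0.00139 by edgeR). The TGF-β superfamily ligands Bmp2, Gdf3, Inhba and Gdf15 fell with log2 fold changes of -0.53, -0.53, -0.63 and -0.74 (adjusted p = 0.000784, 0.000788, 0.00788 and 0.0130, edgeR), and Gdf15 no longer passed once So(d18:1) replicate 2 was omitted (adjusted p = 0.0537). The groups did not overlap in 4 of these 5 genes, with Gdf15 as the exception. These were also the only 4 of the 16 tested genes with groups apart, where all tested genes gave 15.0%. As the 5 genes were picked by their adjusted p, nothing is read from this count. Grn, encoding progranulin, was the most abundant gene of the list in CPM, at 2218 ± 25.7 with methanol and 2309.5 ± 97.7 with So(d18:1), and did not pass (adjusted p = 0.446, edgeR). Osm, Fgf2 and Csf1 did not pass either. The lower neutrophil and lymphocyte marker sums given above stand beside these values too, and their part in them was not tested.

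**Figure D4:**
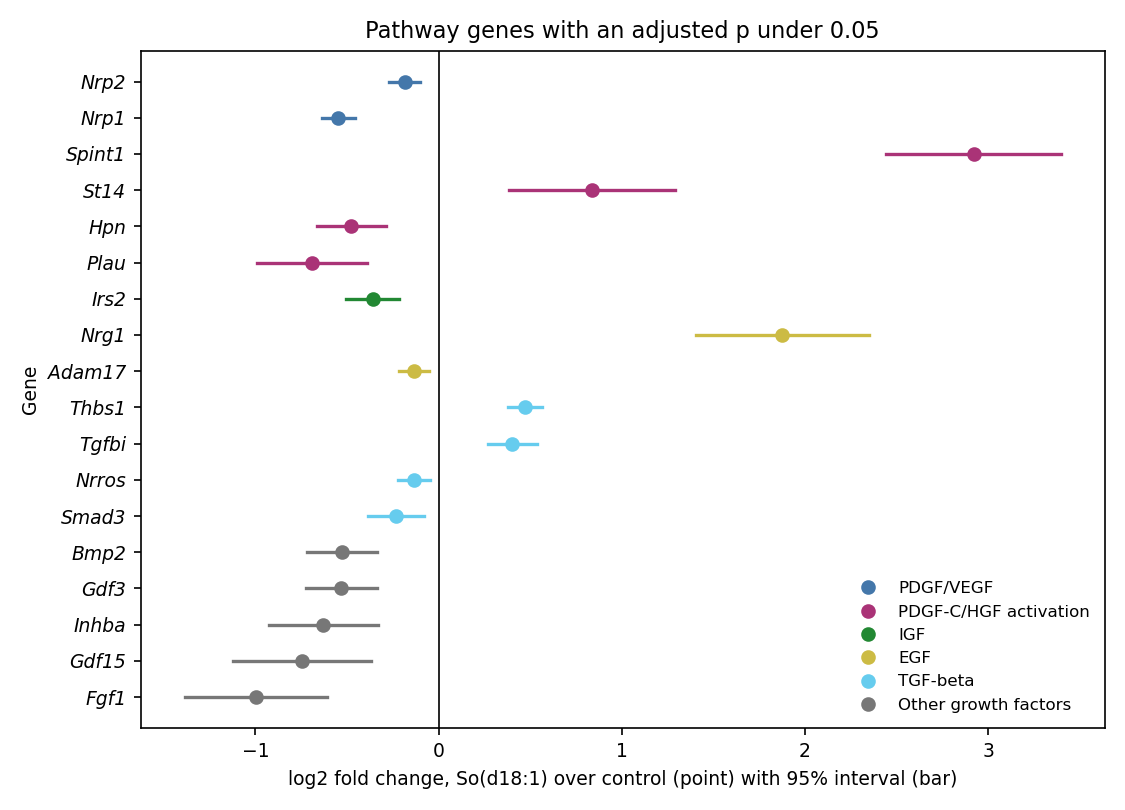
The log2 fold change of So(d18:1) over control for the 18 genes of the 6 lists that had an adjusted p under 0.05, with 95% intervals and coloured by list. Spint1 (2.92), Nrg1 (1.88), St14, Thbs1 and Tgfbi lie to the right of 0, and the other 13 lie to the left.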

How the data were processed

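Per the labels, RNA with a poly(A) tail from 8 libraries was sequenced, and the submitters' processing notes name Trim Galore 0.6.7, HISAT2 2.2.1, featureCounts 2.0.1 and the build mm10. The values that the authors deposited are raw counts per Ensembl gene, with a gene length in bases. Strand and multi-mapping settings are not given in the sources used here. Symbols and positions came from GENCODE release M21 (GRCm38), in which 52081 of the 55357 identifiers carried a symbol. The others held at most 0.325% of the counts.

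Counts were filtered by filterByExpr, scaled by TMM and tested in R 4.3.3 with edgeR 4.0.16 (quasi-likelihood F test, robust, Benjamini-Hochberg). CPM use the TMM library sizes. Standard errors (SE) were taken as the absolute log2 difference divided by the square root of F. For log2 CPM the prior count was 2. DESeq2 1.42.0 and limma 3.58.1 served for alternatives. The fit was tested on simulated data. Replicates of one group differed by more than counting noise (chi-square per gene from 2.75 to 12.1).

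Named genes are the 10 members and, from each list, genes with an adjusted p under 0.05, up to 5 by smallest p. Other genes named without a call are receptors, ligands and abundant genes of the lists, chosen after their values were seen. The members and lists were chosen with earlier results of these data known. Cell type lists covered macrophages, fibroblasts, endothelium, megakaryocytes, mast cells, neutrophils, dendritic cells and lymphocytes. Protein sequences were not analysed here.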

Additional observations from a re-analysis of the deposited data

Results flagged for a closer look

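Among the 26 genes with a fit that were examined (8 growth factors and 18 called genes of the lists), 2 of 52 groups held 1 library far from the remaining 3, by the gap to the nearest library divided by the range of the group, where chance gives 2.6. The ratio was 0.908 for Gdf3 in control, at a log2 CPM of 4.22 in replicate 3 against 3.97 to 3.99 in the others. It was 0.880 for Inhba in So(d18:1), at 1.76 in replicate 4 against 1.53 to 1.56. None of the 8 tested growth factors of the main list was among them. Both genes kept an adjusted p under 0.05 whichever of the 8 libraries was omitted.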

How the results depend on the processing

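Pdgfc and Igf1 passed an adjusted p of 0.05 under all 8 other settings and in all 8 fits with one library left out. Hgf passed under 5 of the 8 settings and in 2 of the 8 fits, and was lost with library size alone (adjusted p = 0.0592), with no filter on low counts (0.0503) and with limma-voom (0.0543). Tgfb1 passed under 4 settings, library size alone (adjusted p = 0.0431), no filter (0.0184), DESeq2's Wald test (0.0468) and the replicate block (0.0251). The cause of these changes was not tested. The number of growth factors called lay between 2 and 4, and that of the list genes between 13 and 21. The log2 fold change of Vegfb lay between -0.148 and 0.030 with one library left out and turned positive without control replicate 4. The number of genes called over the whole table ranged from 815 (without So(d18:1) replicate 2) to 1370 with one library left out, against 1298, where fewer samples entered. Genes past the study's threshold rose from 564 to 1212 with no filter on low counts, where 28076 genes were tested.

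Same-numbered libraries of the groups deviated together with correlations from -0.0035 to 0.100, so the numbers were not taken as pairs, and 1 of 4 numbers had both libraries correlate best with each other. With the replicate number as a block, 1784 genes, 4 growth factors (Tgfb1 added) and 21 list genes were called. Without the block these were 1298, 3 and 18. Why more genes were called with the block, and whether same-numbered libraries share a source, was not tested. Depth limits Hbegf and Areg, whose counts per library were at most 8 and 1.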
